A study of Homo sapiens with 16 samples.

Results

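AZ1366, a small-molecule inhibitor of the tankyrases, was added to gefitinib, an inhibitor of the epidermal growth factor receptor (EGFR) kinase, and the transcripts of the treated cells were set against those of cells given gefitinib without AZ1366. The comparison rests on 8 of the 16 RNA-seq libraries of the study: 4 from cells given gefitinib (100 nM) together with AZ1366 (100 nM), called combination libraries here, and 4 from cells given gefitinib (100 nM). The other 8 libraries, 4 from cells given AZ1366 (100 nM) and 4 from cells given the vehicle DMSO, served to ask whether the effect of AZ1366 differed when gefitinib was absent. All 4 groups were HCC4006, an established human line of non-small cell lung cancer known for an activating EGFR mutation, grown for 24 hours before a treatment of 24 hours. The line, the dose and the time were the same throughout, so nothing here speaks to other lines, doses or times. Of 24293 loci in the deposited table, 11647 had a mean of at least 1 FPKM (fragments scaled to transcript length and to the mapped fragments of the library) over the 16 libraries and were tested. A change is the difference between group means of log2(FPKM + 1), a scale that understates the changes of low transcripts. A locus was called higher or lower when its p from limma, adjusted by Benjamini and Hochberg over all tested loci, was under 0.05. Since nothing in the labels ties the 4 libraries of a group to cultures grown apart, the p-values reflect only how far these libraries scatter, and that scatter may be technical.

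Tankyrases are enzymes that attach chains of ADP-ribose to other proteins and thereby mark many of them for degradation. Their partners include the AXIN proteins, scaffolds of the complex that degrades beta-catenin, and the angiomotins, which keep the coactivators YAP and TAZ out of the nucleus. Tankyrase inhibitors are therefore known for stabilising AXIN and angiomotin proteins, with less transcription through Wnt and beta-catenin and through YAP and its DNA-binding partners, the TEAD factors. Protein levels were not measured here, and the transcripts show only what lay downstream. In EGFR-mutant lung cancer cells gefitinib is known to shut off signalling through ERK and AKT.

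Summed FPKM of the 16 libraries, a scaled sum that does not show their size, lay between 433357 and 478179, and between 11326 and 11799 loci reached 1 FPKM. The 100 most abundant loci held 32.4 to 34.6% of the summed FPKM in the combination libraries and 28.6 to 31.1% in the gefitinib libraries, so the groups also differed in how abundance was spread over loci. Read depth is unknown, since the table holds no counts. Of the 10 markers of lung epithelium and adenocarcinoma, the keratins KRT7, KRT8, KRT18 and KRT19 and EPCAM were abundant in all 16 libraries, NKX2-1 was present, and the secretory markers NAPSA and SFTPB stayed under 1 FPKM. The summed level of that list ran from 3752 to 4136 FPKM in the combination libraries and from 4504 to 4870 FPKM in the gefitinib libraries. Leukocyte markers summed to 58.8 to 65 FPKM in the combination libraries and 50.8 to 55.6 FPKM in the gefitinib libraries, nearly all of it CD68, a lysosomal protein not limited to leukocytes, while CD3E and PTPRC were at or near 0. The only endothelial marker to reach 1 FPKM was KDR, a receptor for VEGF, and of the neuroendocrine markers INSM1 was listed at 0 in all 16 libraries.

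AZ1366 on top of gefitinib changed the levels of many transcripts by small amounts. Of the 11647 loci, 6118 were called, which is 52.5%: 1780 were higher (15.3%) and 4338 were lower (37.2%) with the combination than with gefitinib. Only 4 of them were higher and 39 lower by at least 1 on the log2 scale. Without gefitinib replicate 1 the 4 became 7, and without gefitinib replicate 2 they became 2. The excess of falls depended on the scaling, because the median change over all tested loci was -0.10. With quantile normalization that median was 0.01 and 3064 loci were called higher (26.3%) and 3114 lower (26.7%), and with median-ratio scaling 3099 were higher (26.6%) and 3250 lower (27.9%). A small rise or fall stands against that shift. Where the values of the 4 combination and 4 gefitinib libraries are given below, the groups did not overlap unless the text says that they did. The 4 libraries of one group did not overlap the 4 of the other for 1658 loci that were higher (14.2%) and for 4007 that were lower (34.4%).

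Transcript length moved with the changes. Across loci, which are not independent replicates, the rank correlation of the change with length was -0.468, and the median change went down over the 5 length classes, 0.10 among the shortest transcripts, then -0.03, -0.14, -0.18 and, among the longest, -0.24. A fit that also corrected each library for transcript length and GC content called 3196 loci higher (27.7%) and 2967 lower (25.7%). Counts from that fit are given below beside many gene groups, among them those whose members are much shorter or longer than the median of 2850 bases. A missing count does not mean that length had no part. The part of length in these results was not tested.

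**Figure D1:**
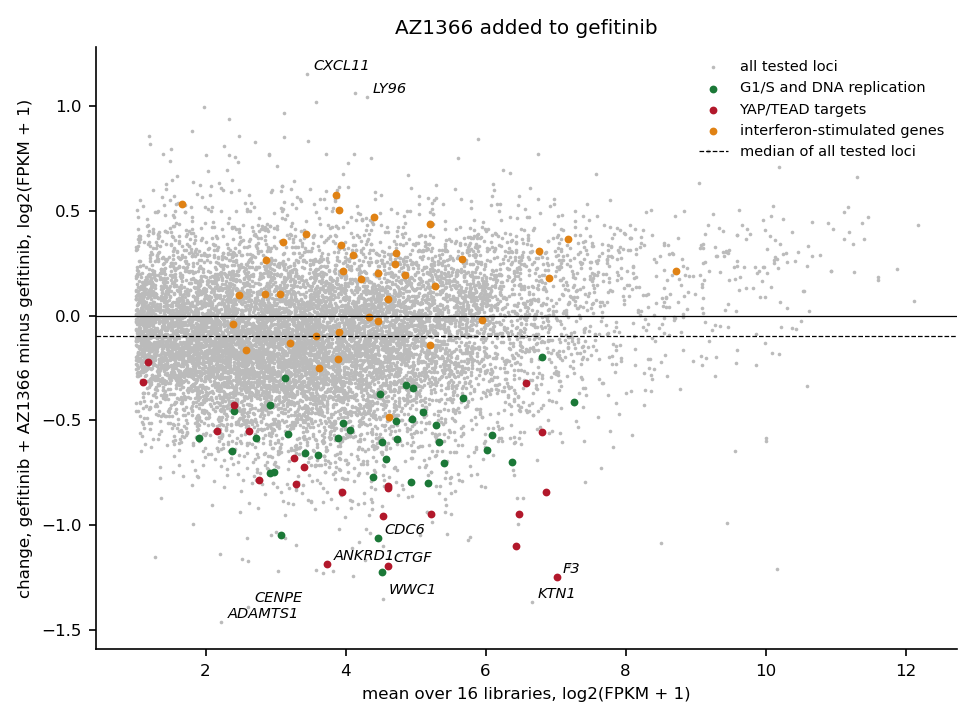
The change between the combination and gefitinib, as a difference of log2(FPKM + 1), is plotted against the mean level over 16 libraries for all 11647 tested loci, 1 point per locus, with 3 gene lists coloured and the median of all loci dashed. YAP/TEAD targets and genes of G1/S and DNA replication lie below the median line, with F3, CTGF and ANKRD1 at -1.25, -1.20 and -1.19.

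Targets of YAP and TEAD showed the most uniform fall among the gene groups of the tankyrase pathways. All 22 tested members were called lower and none higher, with a median log2 change of -0.81 against -0.10 over all loci. 21 of them were lower after quantile normalization, and 20, with a median of -0.58, after correction for length and GC content. Leaving out gefitinib replicate 4, the library most often at the edge of its group, left the count at 22. The weakest member was FOXF2, a forkhead factor, at -0.22, whose call was lost after quantile normalization (adjusted p = 0.127) or length correction (adjusted p = 0.0982) and without gefitinib replicate 1 (adjusted p = 0.0567). NT5E, the ecto-5'-nucleotidase CD73, changed by -0.32 and lost its call after length correction (adjusted p = 0.0965) and without combination replicate 3 (adjusted p = 0.0613), combination replicate 4 (adjusted p = 0.0552) or gefitinib replicate 2 (adjusted p = 0.0663). These 2 genes were named after their values were seen.

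CTGF, a secreted matricellular protein and the standard readout of YAP activity, had 18.9, 20.2, 18.4 and 19.1 FPKM in the combination libraries, against 43, 45.1, 47.6 and 44.9 FPKM in the gefitinib libraries. The groups were far apart and each was tight: the combination left 42.4% of the gefitinib level (log2 change -1.20, SE 0.0446, adjusted p = 1.48e-11). ANKRD1, a muscle ankyrin repeat protein that is another classical YAP target, had 9.8, 9.22, 8.45 and 8.65 FPKM in the combination libraries, against 22.3, 22.8, 22.9 and 19.4 FPKM in the gefitinib libraries. It fell by about as much, with the 4th gefitinib library the lowest of its group yet still above every combination library (log2 change -1.19, SE 0.0754, adjusted p = 1.13e-08). F3, tissue factor, which starts blood coagulation, was more abundant, at 54.3, 55.4, 52.2 and 52.2 FPKM in the combination libraries, against 124, 125, 126 and 139 FPKM in the gefitinib libraries. Here the 4th gefitinib library was the highest of its group, and the groups did not overlap (log2 change -1.25, SE 0.0606, adjusted p = 6.56e-10).

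CTGF was taken first for a look at promoters, as the standard readout. F3, ANKRD1 and AXL followed as the YAP/TEAD targets with the smallest adjusted p among those with a promoter window. The promoter sequences of CTGF, ANKRD1 and F3 are shown, and that of AXL is not printed. They come from RefSeq on GRCh38.p14 and run 5' to 3' along the gene, 250 bases before the gene start to 50 after it. Capitals mark the core of the TEAD motif, GGAATG, and the motif of AP-1, TGAGTCA, each searched on both strands, the AP-1 motif being its own partner on the other strand in all but its central base. The windows are chr6:131951323-131951622 for CTGF (RefSeq symbol CCN2), chr10:90921038-90921337 for ANKRD1 and chr1:94541710-94542009 for F3, all on the minus strand.
CTGF: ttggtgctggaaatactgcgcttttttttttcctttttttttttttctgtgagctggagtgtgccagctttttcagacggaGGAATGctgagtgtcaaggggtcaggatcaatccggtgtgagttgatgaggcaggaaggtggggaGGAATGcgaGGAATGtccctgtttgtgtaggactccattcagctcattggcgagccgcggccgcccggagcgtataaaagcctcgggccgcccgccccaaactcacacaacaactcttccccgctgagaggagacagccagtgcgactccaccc
ANKRD1: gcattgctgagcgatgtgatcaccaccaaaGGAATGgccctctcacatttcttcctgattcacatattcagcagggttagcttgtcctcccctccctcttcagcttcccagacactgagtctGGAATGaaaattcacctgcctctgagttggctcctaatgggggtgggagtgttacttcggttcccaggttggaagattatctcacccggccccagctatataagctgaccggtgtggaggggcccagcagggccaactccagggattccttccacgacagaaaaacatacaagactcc
F3: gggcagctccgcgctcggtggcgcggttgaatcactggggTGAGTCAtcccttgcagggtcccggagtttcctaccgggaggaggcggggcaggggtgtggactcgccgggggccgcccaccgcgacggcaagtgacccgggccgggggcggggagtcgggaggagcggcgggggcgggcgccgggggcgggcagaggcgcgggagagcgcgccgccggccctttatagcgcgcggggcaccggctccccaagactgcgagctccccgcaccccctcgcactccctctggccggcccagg
In CTGF the TEAD core began 169, 104 and 95 bases before the gene start, and in ANKRD1 220 and 128 bases before it. F3 held no TEAD core and 1 AP-1 motif. The window of AXL held neither. Of the 22 targets, 17 matched a RefSeq promoter and 7 of those held the TEAD core (41.2%), against 3849 of 27305 promoters of the same length (14.1%). The core was also in 4 of the 7 matched promoters among the 12 largest rises (57.1%) and in 3 of the 11 among the 12 largest falls (27.3%). The AP-1 motif was in 1 of the 17 (5.88%), against 4.9% of all promoters. A match is a description of the letters and not a bound site.

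AXL, a receptor tyrosine kinase known for its part in tolerance to EGFR inhibitors, had 43.1, 45, 40.4 and 41.8 FPKM in the combination libraries, against 92.6, 95.3, 87.4 and 94.1 FPKM in the gefitinib libraries. No combination library came near the gefitinib range, and 46.1% of the level remained (log2 change -1.10, SE 0.0696, adjusted p = 1.13e-08). CYR61, a matricellular relative of CTGF, had 88.7, 99.9, 87.2 and 86.6 FPKM in the combination libraries, against 164, 156, 160 and 170 FPKM in the gefitinib libraries. The 2nd combination library stood above its own group but well below every gefitinib library (log2 change -0.84, SE 0.0576, adjusted p = 2.03e-08). AMOTL2, an angiomotin whose gene is itself a YAP target, fell by 0.96 (adjusted p = 4.24e-06), IGFBP3, a binding protein of insulin-like growth factors, by 0.95 (adjusted p = 1.16e-05) and TGFB2, a ligand of the TGF-beta receptors, by 0.82 (adjusted p = 9.85e-06).

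**Figure D2:**
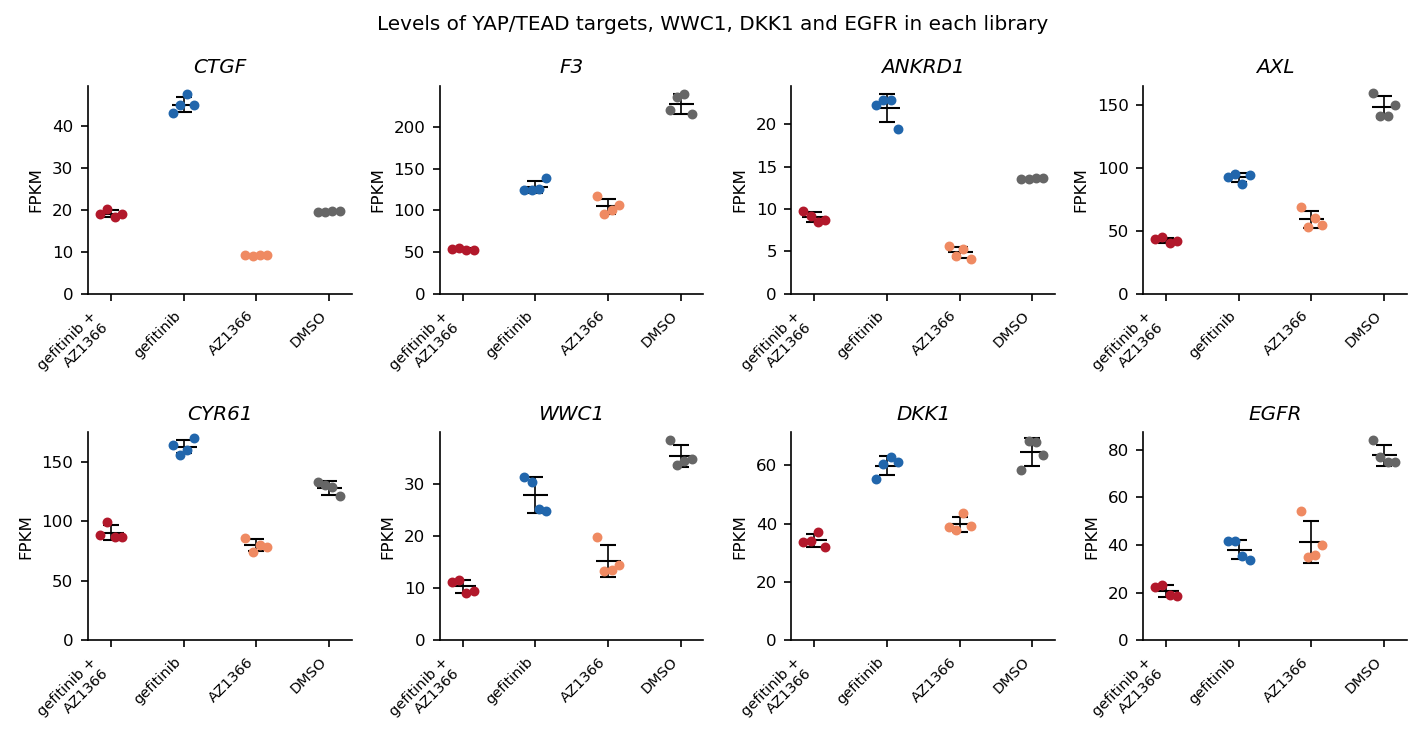
FPKM of 8 genes in each library (points), with the group mean and SD (bars, n = 4), from left to right for gefitinib + AZ1366, gefitinib, AZ1366 and DMSO. In all 8 panels the 4 combination libraries lie below the 4 gefitinib libraries, as for CTGF at 18.9, 20.2, 18.4 and 19.1 against 43, 45.1, 47.6 and 44.9 FPKM.

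Genes of the Hippo pathway also fell, in a list that holds the kinase cascade that restrains YAP together with TEAD factors. LATS2 was counted among the YAP/TEAD targets as well. Of 24 tested members 17 were called lower and 1 higher, with a median of -0.39, which was -0.18 after correction for length and GC content, their median length being 4440 bases. The strongest was WWC1 (KIBRA), an upstream activator of the kinases LATS1 and LATS2 whose gene is known as a YAP target, with 11.1, 11.5, 9.03 and 9.5 FPKM in the combination libraries, against 31.2, 30.2, 25.1 and 24.8 FPKM in the gefitinib libraries. Its groups were separate by a wide margin (log2 change -1.35, SE 0.11, adjusted p = 1.3e-07). FRMD6, a FERM-domain protein that also acts upstream of the cascade, fell by 0.82 (adjusted p = 4.05e-08) and NF2, the tumour suppressor merlin, by 0.78 (adjusted p = 9.18e-06). The coactivators themselves did not pass the test: WWTR1, which encodes TAZ, was at -0.08 (SE 0.101) with an adjusted p of 0.528. YAP1 had 26.4, 28, 23 and 24.3 FPKM in the combination libraries, against 30.4, 29.2, 29.1 and 27.3 FPKM in the gefitinib libraries, and the groups overlapped (log2 change -0.19, SE 0.082, adjusted p = 0.0648). With same-numbered libraries treated as pairs, a replicate block, the adjusted p of YAP1 was 0.039, and it was also under 0.05 with only the 8 libraries compared (adjusted p = 0.0232) and without combination replicate 2 (adjusted p = 0.0332). Among the DNA-binding partners, TEAD1 changed by -0.55 (SE 0.079) and TEAD4 by -0.54 (SE 0.0678), with adjusted p of 3.73e-05 and 1.07e-05. TEAD2 was the member called higher, at 13, 12.9, 12.2 and 12.8 FPKM in the combination libraries, against 8.73, 9.74, 9.43 and 10.1 FPKM in the gefitinib libraries (log2 change 0.39, SE 0.0635, adjusted p = 0.000131). WWTR1, YAP1 and the 3 TEAD genes were named after their values were seen.

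The transcripts of the drug's own targets did not pass the test. TNKS, which encodes tankyrase 1, had 3.73, 3.72, 3.76 and 3.64 FPKM in the combination libraries, against 4.13, 3.84, 4.36 and 3.94 FPKM in the gefitinib libraries, a difference of -0.10 (SE 0.055) with an adjusted p of 0.123. TNKS2, which encodes tankyrase 2, was at -0.07 (SE 0.0731) with an adjusted p of 0.419, and its groups overlapped. Corrected for length and GC content both differences turned positive and passed, at 0.18 (adjusted p = 0.013) for TNKS and 0.17 (adjusted p = 0.00103) for TNKS2, so these data fix no direction for either gene. Among 17 tested tankyrases and binding partners 7 were lower and 1 higher, and after length correction 5 were lower and 5 higher. Before that correction the share lower was near the 37.2% of all loci. AXIN1, the destruction complex scaffold, had 2.59, 3.03, 2.11 and 2.27 FPKM in the combination libraries, against 4.18, 4.44, 3.36 and 3.59 FPKM in the gefitinib libraries. The groups did not overlap (log2 change -0.48, SE 0.115, adjusted p = 0.00238). AMOTL1, another angiomotin, fell by 0.57 (adjusted p = 7.64e-06) and the deubiquitinase USP25, a tankyrase partner, by 0.58 (adjusted p = 0.00152). The higher member was BABAM1, a subunit of the BRCA1-A complex, at 0.20 (adjusted p = 0.00888), which was named after its values were seen.

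Wnt feedback targets are listed here as genes that beta-catenin switches on, many of which in turn damp or tune the pathway. CCND1 and MYC are also counted in the list of ERK output genes below. Most of the Wnt list was too low to test: 8 of 21 reached a mean of 1 FPKM. Of those, 7 were called lower and 1 higher, with a median of -0.37; after length correction 4 were lower and 1 higher. DKK1, a secreted antagonist of the Wnt coreceptor LRP6, had 33.7, 34.1, 37 and 32.1 FPKM in the combination libraries, against 55.3, 60.5, 62.8 and 61 FPKM in the gefitinib libraries. The 4 combination libraries were all below the gefitinib range (log2 change -0.79, SE 0.0637, adjusted p = 1.2e-07). CCND1, cyclin D1, fell by 0.69 (adjusted p = 1.16e-05), and LGR5, a receptor for R-spondins that was named after its values were seen, by 0.44 (adjusted p = 1.92e-05). MYC, the growth-promoting transcription factor, was low in these cells, at 1.56, 1.57, 1.25 and 1.22 FPKM in the combination libraries, against 2.91, 2.75, 2.75 and 2.75 FPKM in the gefitinib libraries. It was nonetheless separate between groups (log2 change -0.66, SE 0.0813, adjusted p = 8.27e-06). BAMBI, a pseudoreceptor that blocks TGF-beta signalling and is also a Wnt target, was the higher member at 0.21, a call that was lost without combination replicate 1 (adjusted p = 0.0571) or gefitinib replicate 1 (adjusted p = 0.058). It too was named after its values were seen.

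AXIN2, the scaffold whose gene is the most specific readout of beta-catenin, lay far below the filter. It had 0.0209, 0.039, 0.00833 and 0.034 FPKM in the combination libraries, against 0.0524, 0.0559, 0.0525 and 0.0474 FPKM in the gefitinib libraries. Each combination value was below each gefitinib value. An exact two-sided permutation test over the 8 libraries gave p = 0.0286, the smallest that 70 assignments allow, and 0.0929 when adjusted over the 13 low Wnt and tankyrase genes tested that way. RNF43, a ubiquitin ligase that removes Wnt receptors, and NOTUM, an enzyme that inactivates Wnt ligands, were separate in the same direction at the same p, with means of 0.579 ± 0.058 FPKM with the combination and 0.714 ± 0.0688 FPKM with gefitinib for RNF43, and of 0.16 ± 0.0458 FPKM with the combination and 0.331 ± 0.0688 FPKM with gefitinib for NOTUM (SD, n = 4 each). PROX1, a homeobox factor, was separate the other way, at 0.11 ± 0.0207 FPKM with the combination and 0.0698 ± 0.00929 FPKM with gefitinib (SD, n = 4 each). NKD1, an intracellular Wnt antagonist, was at 0.00929 ± 0.00467 FPKM with the combination and 0.00832 ± 0.00294 FPKM with gefitinib (SD, n = 4 each), an exact p of 0.743. The table does not say how many reads stood behind values this low.

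Among Wnt ligands, receptors and the destruction complex 19 of 32 tested members were lower and 1 higher, but after length correction the split was 10 lower and 8 higher, with a median of -0.03. ROR1, an orphan receptor tyrosine kinase that binds WNT5A, fell by 0.61 (adjusted p = 4.52e-05). FZD4, a Frizzled receptor, fell by 0.35 (adjusted p = 5.62e-05), a call that length correction removed (adjusted p = 0.133). WLS, the carrier that brings Wnt ligands to the cell surface, was the higher member, at 36.7, 37.7, 36.7 and 38.1 FPKM in the combination libraries, against 28.8, 27.4, 28.1 and 29.3 FPKM in the gefitinib libraries (log2 change 0.38, SE 0.0441, adjusted p = 4.5e-06).

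With EGFR already inhibited, the output genes of ERK moved unevenly when AZ1366 was added. Of 24 tested members 8 were lower and 1 higher, with a median of -0.06, but after quantile normalization 7 and 7 with a median of 0.08, and after length correction 8 and 8 with a median of 0.00. In the first fit the share lower was near the 37.2% of all loci. CCND1 and MYC, counted above as Wnt targets, were among those lower. DUSP6, the phosphatase that ERK induces to limit itself, had 3.39, 3.28, 2.61 and 2.67 FPKM in the combination libraries, against 2.78, 2.95, 2.39 and 2.71 FPKM in the gefitinib libraries. The groups overlapped (log2 change 0.10, SE 0.08, adjusted p = 0.294), although the rescaled fits put it higher, at 0.23 (adjusted p = 0.00158) after quantile normalization and 0.26 (adjusted p = 0.000231) after length correction. The strongest falls of the list were FOSL1, a subunit of AP-1, with 4.43, 5.03, 4.88 and 4.7 FPKM in the combination libraries, against 12.3, 11, 10 and 12.2 FPKM in the gefitinib libraries (log2 change -1.10, SE 0.102, adjusted p = 4.64e-07), and EPHA2, an ephrin receptor, at -1.05 (adjusted p = 2.02e-06). In both, the groups did not overlap.

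EGFR and several ligands of its family fell. EGFR itself had 22.4, 23.4, 18.9 and 18.6 FPKM in the combination libraries, against 41.7, 41.5, 35.5 and 33.8 FPKM in the gefitinib libraries. The combination left 54.6% of the gefitinib level, with all 4 libraries below the gefitinib range (log2 change -0.84, SE 0.114, adjusted p = 2.07e-05). NRG1, neuregulin, a ligand of ERBB3 and ERBB4, had 3.36, 3.68, 3.5 and 3.32 FPKM in the combination libraries, against 7.52, 8.49, 8.27 and 8.21 FPKM in the gefitinib libraries, again without overlap (log2 change -1.03, SE 0.0705, adjusted p = 2.03e-08). HBEGF, a ligand of EGFR, fell by 0.55 (adjusted p = 8.51e-07). ERBB3, the receptor that pairs with EGFR and ERBB2 and was named after its values were seen, was higher by 0.21 (adjusted p = 0.032). It missed the threshold without combination replicate 1 or 2 or gefitinib replicate 3 or 4 (adjusted p between 0.0764 and 0.0878) and with no filter (adjusted p = 0.0514). Of 14 tested receptors, ligands and regulators of the ERBB family 8 were lower and 2 higher, and after length correction 6 and 3. Among 19 other receptor kinases and ligands 14 were lower and 2 higher with a median of -0.35, and after length correction 11 and 4 with a median of -0.17. That list includes AXL, described above, and MET, the receptor for hepatocyte growth factor, which fell by 0.58 (adjusted p = 3.06e-06).

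Genes of cell division fell without exception among those tested. All 38 members of the G1/S and DNA replication list were called lower (median -0.59), as were all 38 of the G2/M and mitosis list (median -0.61) and all 24 of the homologous recombination and Fanconi list (median -0.51). After quantile normalization 38, 37 and 21 were lower, after length correction 38, 38 and 23, and without gefitinib replicate 4 37, 38 and 23. In bulk RNA fewer cycling cells and less of these transcripts per cell cannot be told apart.

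CDC6, which loads the replicative helicase at origins, had 8.05, 7.76, 6.93 and 7.26 FPKM in the combination libraries, against 17.2, 17, 16.3 and 16.4 FPKM in the gefitinib libraries. Both groups were tight and the combination left 44.8% of the level (log2 change -1.06, SE 0.0697, adjusted p = 1.51e-08). RRM2, the regulated subunit of ribonucleotide reductase, had 44.4, 46.1, 42.4 and 44.4 FPKM in the combination libraries, against 69.5, 71.6, 72.9 and 76 FPKM in the gefitinib libraries (log2 change -0.70, SE 0.048, adjusted p = 2.03e-08). MCM6, a subunit of the helicase, fell by 0.79 (adjusted p = 3.69e-08) and UHRF1, which keeps DNA methylated through replication, by 1.23 (adjusted p = 3.02e-06). Of the repair genes, EXO1, a nuclease that resects DNA ends, fell by 0.86 (adjusted p = 6.73e-08), BLM, a helicase, by 0.75 (adjusted p = 3.91e-07) and FANCI, a partner of FANCD2 at stalled forks, by 0.64 (adjusted p = 6.12e-08).

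Several of the 12 largest falls were mitotic genes. CENPE, a kinetochore motor, had 0.867, 1.06, 0.553 and 0.64 FPKM in the combination libraries, against 6.26, 7.12, 2.27 and 1.38 FPKM in the gefitinib libraries. Gefitinib libraries 1 and 2 were several times above 3 and 4 here, and the groups stayed apart by a narrow margin (log2 change -1.39, SE 0.309, adjusted p = 0.00157). KTN1, an anchor of kinesin on membranes, which is no cell cycle gene, showed the same split, at 52.3, 53.1, 36.3 and 35.6 FPKM in the combination libraries, against 156, 172, 96.9 and 64.5 FPKM in the gefitinib libraries (log2 change -1.37, SE 0.259, adjusted p = 0.000465). CENPF, ASPM, KIF20B and SGOL2, which act at kinetochores and the spindle, changed by -1.24, -1.23, -1.22 and -1.21, and ZNF367, a zinc finger factor, by -1.22, with adjusted p between 5.41e-06 and 0.000459. In CENPF, ASPM, KIF20B and SGOL2 too, gefitinib libraries 1 and 2 stood above 3 and 4. Outside those 12, ANLN, a scaffold of the cytokinetic ring, had 60.9, 61.8, 55.2 and 57.4 FPKM in the combination libraries, against 149, 158, 125 and 115 FPKM in the gefitinib libraries, well separated (log2 change -1.19, SE 0.0996, adjusted p = 1.86e-07). MKI67, the antigen used to count cycling cells, had 5.48, 5.12, 4.37 and 4.53 FPKM in the combination libraries, against 13.1, 12.9, 9.44 and 8.71 FPKM in the gefitinib libraries (log2 change -1.02, SE 0.171, adjusted p = 0.00017). AURKA, a mitotic kinase, fell by 0.53 (adjusted p = 7.07e-07) and KIF2C, which depolymerises microtubules at kinetochores, by 0.68 (adjusted p = 9.77e-08).

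Cell cycle inhibitors and p53 targets split: 9 of 23 tested members were higher and 7 lower, against 15.3% and 37.2% of all loci. The share higher was thus above that of all loci and the share lower below it. After length correction 11 were higher and 6 lower, against 27.7% and 25.7% of all loci. CDKN1B, the inhibitor p27, had 15.7, 14.9, 14.6 and 13.2 FPKM in the combination libraries, against 15.8, 16.4, 14.8 and 15.2 FPKM in the gefitinib libraries, which overlapped (log2 change -0.09, SE 0.0575, adjusted p = 0.207). BTG1, an antiproliferative gene that rises in quiescent cells, was higher by 0.44 (adjusted p = 2.04e-06) and TP53INP1, a stress-induced p53 cofactor, was among the 12 largest rises with 12.3, 11.8, 11.4 and 11.7 FPKM in the combination libraries, against 5.44, 5.08, 7.71 and 6.93 FPKM in the gefitinib libraries (log2 change 0.83, SE 0.0942, adjusted p = 3.92e-06). PLK2, a stress kinase that p53 and serum both induce, fell by 0.94 (adjusted p = 2.39e-06), and RBL1, the pocket protein p107 and itself a target of E2F, by 0.79 (adjusted p = 4.47e-07).

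Ribosome biogenesis went down while transcripts of ribosomal proteins were mostly higher. Of 28 tested biogenesis genes 23 were lower and 0 higher (median -0.48), and after length correction 23 and 1. DKC1, the pseudouridine synthase of small nucleolar ribonucleoproteins, had 26.3, 27.4, 25.6 and 27.2 FPKM in the combination libraries, against 45.8, 45.9, 42.9 and 43.2 FPKM in the gefitinib libraries (log2 change -0.72, SE 0.0632, adjusted p = 3.05e-07), and POLR1B, a subunit of RNA polymerase I, fell by 0.51 (adjusted p = 3.23e-06). NOP56, a core protein of box C/D ribonucleoproteins whose locus is listed with MIR1292, fell by 0.60 (adjusted p = 6.38e-07). Of 57 cytosolic ribosomal proteins 49 were higher and 0 lower with a median of 0.29, but after quantile normalization 21 were higher and 2 lower, and after length correction 37 and 0. RPS18, of the small subunit, had 3507, 3670, 4071 and 3867 FPKM in the combination libraries, against 2449, 2709, 2676 and 3098 FPKM in the gefitinib libraries, without overlap (log2 change 0.47, SE 0.077, adjusted p = 0.000132), and lost its call after quantile normalization (adjusted p = 0.322). RPS9, of the same subunit, was higher by 0.34 (adjusted p = 0.000295) and RPL13, of the large subunit and listed with SNORD68, by 0.27 (adjusted p = 0.000307). Ribosomal protein genes have many near-identical pseudogene copies, and how shared reads were assigned is not given in the sources used here. The nuclear subunits of oxidative phosphorylation moved likewise, 31 of 45 higher and 1 lower, and after length correction 23 and 2. COX6C and COX5B, subunits of cytochrome c oxidase, were higher by 0.68 (adjusted p = 0.000317) and 0.42 (adjusted p = 0.000546), and NDUFA1, of complex I, by 0.53 (adjusted p = 0.000299). Both lists consist of short transcripts, with median lengths of 891 and 932 bases.

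Lipid synthesis fell. 20 of 26 tested genes of cholesterol synthesis were lower and 1 higher (median -0.33), with 18 and 2 after length correction. HMGCS1, which makes the precursor of mevalonate, had 81.9, 85.2, 80.8 and 85.7 FPKM in the combination libraries, against 129, 121, 128 and 117 FPKM in the gefitinib libraries (log2 change -0.56, SE 0.0502, adjusted p = 3.67e-07). Of 13 genes of fatty acid synthesis 9 were lower and 0 higher, and after length correction 8 and 1. Those lower included the desaturase SCD at -0.58 (adjusted p = 6.09e-05), the elongase ELOVL6 at -0.66 (adjusted p = 7.63e-06) and ACACA, acetyl-CoA carboxylase, at -0.54 (adjusted p = 1.3e-05). In the polyamine pathway the enzymes at its 2 ends moved in opposite directions. ODC1, ornithine decarboxylase, which starts synthesis, had 18.9, 19, 18.5 and 18.6 FPKM in the combination libraries, against 28.9, 30.6, 28.3 and 32.6 FPKM in the gefitinib libraries (log2 change -0.65, SE 0.0608, adjusted p = 4.76e-07), and SAT1, which starts breakdown, had 193, 171, 191 and 186 FPKM in the combination libraries, against 106, 103, 115 and 109 FPKM in the gefitinib libraries (log2 change 0.77, SE 0.0797, adjusted p = 1.34e-06). Neither pair of groups overlapped. SRM, spermidine synthase, fell by 0.53 (adjusted p = 5.06e-05). Of 11 tested polyamine genes 5 were lower and 2 higher, shares near those of all loci, with 3 and 3 after length correction. Glycolysis and hypoxia genes split. Of 27 tested, 8 were lower and 3 higher, a smaller share lower than among all loci, and after length correction 5 and 7. Among the called members were the glucose transporter SLC2A1 at -0.40 (adjusted p = 0.00013), the phosphofructokinase PFKP at -0.42 (adjusted p = 0.00099) EGLN3, an oxygen-sensing hydroxylase, at -0.42 (adjusted p = 0.00061) and, named after its values were seen, NDRG1, a hypoxia-induced gene, at 0.26 (adjusted p = 0.00414).

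Chemokines of the interferon response stood out among the rises. CXCL11, a ligand of CXCR3 that interferon induces, was the largest among called loci with a single gene symbol, at 24.9, 25.2, 25.8 and 27.2 FPKM in the combination libraries, against 10.3, 11.2, 12.9 and 10 FPKM in the gefitinib libraries. Every combination library was above every gefitinib library by a wide margin (log2 change 1.15, SE 0.0894, adjusted p = 8.66e-08). CXCL10, another CXCR3 ligand, had 8.77, 7.33, 6.8 and 8.83 FPKM in the combination libraries, against 3.59, 3.34, 3.98 and 2.99 FPKM in the gefitinib libraries (log2 change 0.99, SE 0.091, adjusted p = 4.41e-07). The table gives both genes one interval, chr4:76932333-77033955 on hg19, which spans neighbouring genes as well, so their reads may not be fully separated. CCL2, which attracts monocytes, had 301, 319, 300 and 322 FPKM in the combination libraries, against 220, 209, 228 and 238 FPKM in the gefitinib libraries (log2 change 0.47, SE 0.0582, adjusted p = 8.27e-06), and IL8, a neutrophil chemokine, was higher by 0.76 (adjusted p = 0.000435). Of 14 tested chemokines and cytokines 7 were higher and 3 lower, with the same counts after length correction.

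Interferon-stimulated genes rose in part: 14 of 38 tested members were higher and 1 lower, against 15.3% and 37.2% of all loci. After quantile normalization the counts were 20 and 1, against 26.3% and 26.7% of all loci. Without gefitinib replicate 4 the counts were 13 higher and 5 lower, and the median was 0.11, against 0.19 with it. ISG20, an exonuclease against viral RNA, IFI44, an interferon-induced GTP-binding protein, and IFITM1, which blocks viral entry, were higher by 0.50, 0.47 and 0.31 (adjusted p = 3.94e-05, 0.000376 and 0.000834). In MHC class I presentation 8 of 20 were higher and 1 lower (8 and 3 without gefitinib replicate 4). After length correction the counts were 9 and 0, against 27.7% and 25.7% of all loci. The immunoproteasome subunits PSMB10 and PSMB8 were higher by 0.42 (adjusted p = 4.28e-05) and 0.37 (adjusted p = 0.000843). B2M, the light chain of class I molecules, was higher by 0.44 (adjusted p = 0.000594) and lost its call after quantile normalization (adjusted p = 0.227). Of the 7 class II genes 6 were higher and 0 lower, with the same counts after length correction. HLA-DMA and HLA-DMB, which load peptide onto class II molecules, were higher by 0.59 (adjusted p = 2.18e-05) and 0.55 (adjusted p = 1.34e-06), and HLA-DRA, a class II chain, by 0.44 (adjusted p = 0.000279).

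The ligands of the checkpoint receptor PD-1 moved the other way. CD274, which encodes PD-L1, had 13.6, 14.5, 13.5 and 13.8 FPKM in the combination libraries, against 23.3, 22.6, 22.2 and 19.7 FPKM in the gefitinib libraries, with no overlap (log2 change -0.62, SE 0.0577, adjusted p = 4.59e-07). PDCD1LG2, which encodes PD-L2, fell by 0.59 (adjusted p = 1.06e-06). LGALS3, galectin-3, was higher by 0.51 (adjusted p = 2e-06), and over the 13 tested checkpoint ligands 6 were higher and 3 lower. Of 19 NF-kB genes 3 were higher and 6 lower, shares near the 15.3% and 37.2% of all loci. After length correction the counts were 5 and 3. The mitochondrial dismutase SOD2 was the most raised at 0.63 (adjusted p = 5.77e-07), followed by LTB, lymphotoxin beta, at 0.47 (adjusted p = 0.00115) and NFKBIA, the inhibitor of NF-kB, at 0.37 (adjusted p = 0.00207). The 6 called lower were NFKB1, NFKB2, NFKBIZ (listed with FAM55C), TNFAIP2, TNFAIP3 and PTGS2, all named after their values were seen. TNFAIP2 was the lowest at -0.44, and the median of the list was -0.14.

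Some pro-apoptotic members of the BCL2 family rose. 4 of the 12 tested were called higher and 0 lower, with a median of 0.11, against 15.3% and 37.2% of all loci. After length correction the counts were 5 and 1, against 27.7% and 25.7% of all loci. BMF, a BH3-only protein, had 37.7, 36.6, 33.6 and 33.4 FPKM in the combination libraries, against 25.9, 26.9, 24.6 and 23.4 FPKM in the gefitinib libraries. The groups did not overlap (log2 change 0.47, SE 0.0717, adjusted p = 6.59e-05). BIK, another BH3-only protein, was higher by 0.51 (adjusted p = 0.000124). BCL2L11, which encodes BIM, a known mediator of cell death under EGFR inhibitors, had 4.72, 4.97, 4.63 and 4.66 FPKM in the combination libraries, against 3.77, 3.99, 3.53 and 3.66 FPKM in the gefitinib libraries, a smaller rise without overlap (log2 change 0.28, SE 0.0624, adjusted p = 0.00162). PMAIP1, which encodes NOXA, was the 4th, at 0.19 (adjusted p = 0.0301); this gene was named after its values were seen. Its adjusted p lay between 0.0512 and 0.0745 without combination replicate 1, 3 or 4 or gefitinib replicate 1 or 4. Among 9 pro-survival genes 3 were lower and 1 higher, shares near the 37.2% and 15.3% of all loci, and after length correction 3 and 4. BCL2L1, which encodes BCL-XL, fell by 0.31 (adjusted p = 0.000247) and BIRC5, survivin, a mitotic gene as well, by 0.34 (adjusted p = 0.000312), while BCL2A1 was higher by 0.34 (adjusted p = 0.00143). TNFSF10, the death ligand TRAIL, had 93.6, 95, 94 and 94.5 FPKM in the combination libraries, against 69.2, 71.3, 65.4 and 51.1 FPKM in the gefitinib libraries (log2 change 0.56, SE 0.0966, adjusted p = 0.000219). In its list 5 of 16 were higher and 4 lower, against 15.3% and 37.2% of all loci. After length correction the counts were 7 and 1, against 27.7% and 25.7% of all loci. CASP1, the protease of inflammasomes, and TRADD, an adaptor of death receptors, were higher by 0.56 (adjusted p = 9.92e-05) and 0.32 (adjusted p = 0.00308). The 4 called lower were FAS, CASP8, RIPK1 and TNFRSF10D, all named after their values were seen. TNFRSF10D was the lowest at -0.31.

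Mesenchymal genes fell and epithelial junction genes split. 16 of 27 tested mesenchymal members were lower and 1 higher (median -0.35), and after length correction 14 and 1. THBS1, thrombospondin, had 252, 260, 206 and 223 FPKM in the combination libraries, against 546, 498, 496 and 455 FPKM in the gefitinib libraries (log2 change -1.08, SE 0.102, adjusted p = 5.07e-07), and CDH2, N-cadherin, fell by 0.66 (adjusted p = 2.69e-05). Of 32 epithelial junction genes 11 were higher and 9 lower: the claudins CLDN4 and CLDN7 were higher by 0.48 (adjusted p = 5.28e-06) and 0.48 (adjusted p = 4.95e-05), while PKP2, a plakophilin of desmosomes, fell by 0.85 (adjusted p = 1.04e-05). The transcripts of the claudins had 1831 and 1564 bases and that of PKP2 4272. Length was not compared over the whole split, and after length correction the counts were 16 higher and 8 lower.

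The largest fall among called loci with a single gene symbol was in the matrix. ADAMTS1, a secreted protease that cleaves proteoglycans, had 0.533, 0.481, 0.319 and 0.414 FPKM in the combination libraries, against 3.1, 3.41, 2.52 and 2.81 FPKM in the gefitinib libraries. Its combination values were low but even, all at least 4 times below the gefitinib values (log2 change -1.46, SE 0.0992, adjusted p = 2.03e-08). MMP13, a collagenase, rose in contrast, at 4.95, 5.69, 5.13 and 5.86 FPKM in the combination libraries, against 2.76, 2.44, 2.62 and 2.12 FPKM in the gefitinib libraries (log2 change 0.88, SE 0.07, adjusted p = 1.02e-07), and of 20 matrix proteases and plasminogen genes 9 were higher and 5 lower. Of 22 integrins and laminins 13 were lower and 3 higher, and after length correction 10 and 7. The integrin chains ITGB3, ITGB6 and ITGB8 were those that rose, by 0.42, 0.32 and 0.47 (adjusted p = 0.000107, 0.000467 and 0.000339). In the TGF-beta and BMP response 11 of 26 were lower and 4 higher, shares near the 37.2% and 15.3% of all loci. After quantile normalization the counts were 9 and 10, and after length correction 8 and 10. GREM1, a BMP antagonist, changed by -0.77 (adjusted p = 1.64e-06) and FST, follistatin, which binds activin, by -0.51 (adjusted p = 9.85e-06). Of 23 actin and SRF genes 13 were lower and 3 higher, and after length correction 11 and 3; the cross-linker ACTN1 fell by 0.60 (adjusted p = 6.16e-05), and MYL6, a myosin light chain, was higher by 0.43 (adjusted p = 6.3e-06).

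The 12 largest rises held several secreted and surface proteins. LY96 (MD-2), which lets the receptor TLR4 bind endotoxin, had 32.1, 34.3, 45.5 and 36.5 FPKM in the combination libraries, against 16.6, 14.8, 18.5 and 19.7 FPKM in the gefitinib libraries (log2 change 1.04, SE 0.119, adjusted p = 4.02e-06). GDF15, a stress-induced cytokine, was higher by 0.85 (adjusted p = 2.17e-07), SPINK1, a trypsin inhibitor, by 0.84 (adjusted p = 5.05e-07) and the tetraspanin TSPAN8 by 0.83 (adjusted p = 5.48e-06). SLC2A12, a glucose transporter, had 6.82, 6.82, 7.13 and 6.75 FPKM in the combination libraries, against 3.19, 3.1, 3.23 and 2.93 FPKM in the gefitinib libraries, with little spread in either group (log2 change 0.94, SE 0.0558, adjusted p = 7.83e-09). C4orf48, C8orf4 and RND1 were higher by 1.06, 0.97 and 0.85 (adjusted p = 8.96e-05, 2.09e-07 and 1.71e-06).

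**Figure D3:**
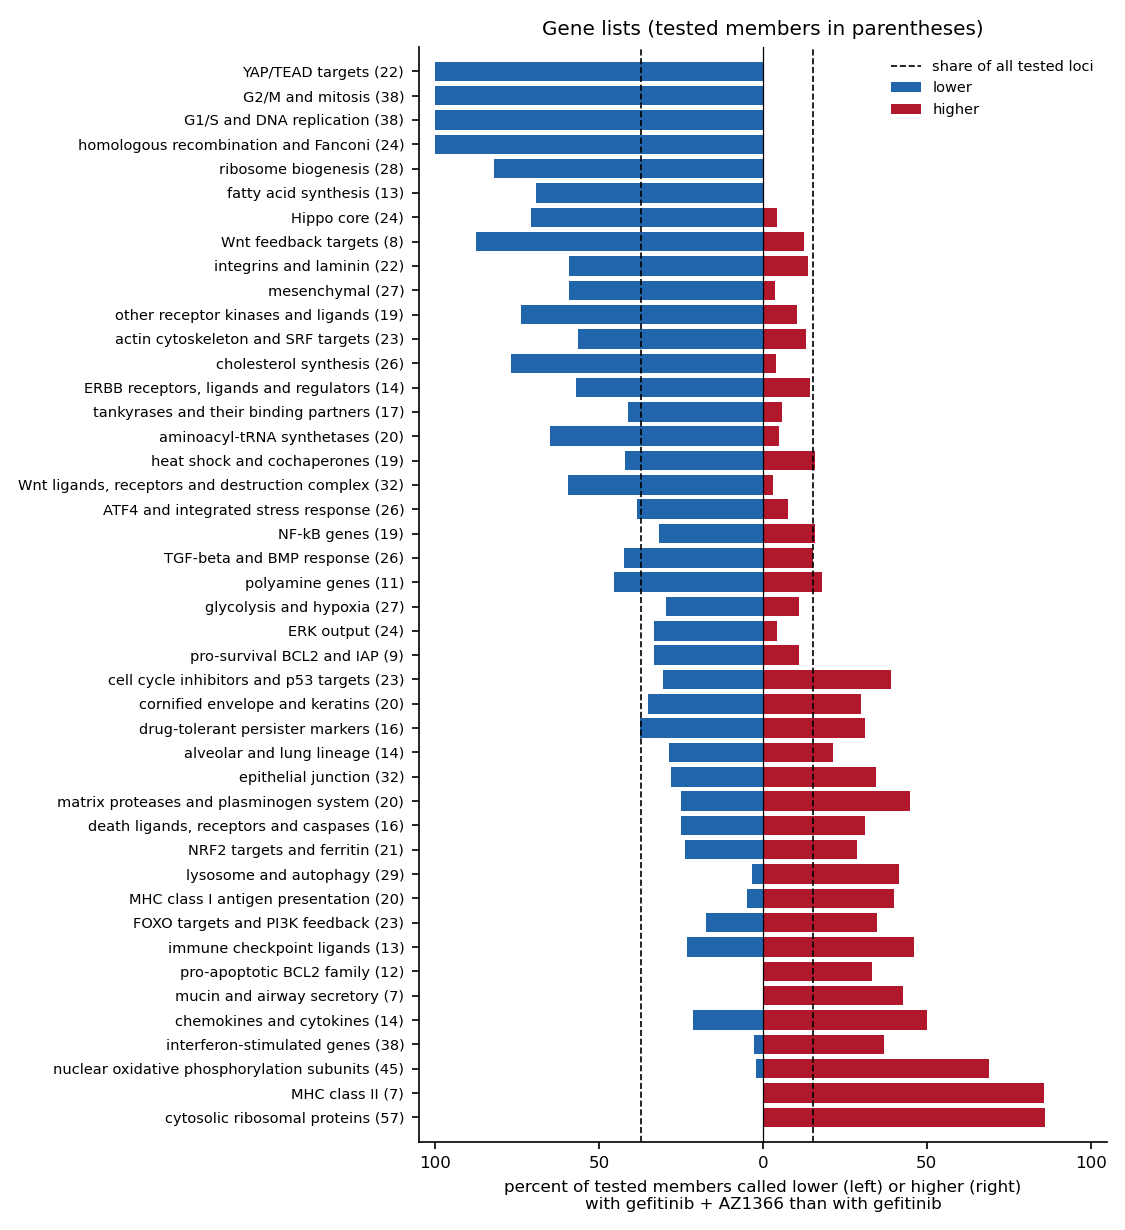
Percent of the tested members of each gene list called lower (blue, left) or higher (red, right) with gefitinib + AZ1366 than with gefitinib, with the number tested in parentheses and the shares of all tested loci, 37.2% lower and 15.3% higher, dashed. The YAP/TEAD, G1/S, G2/M and homologous recombination lists reach 100% lower, and the ribosomal proteins have 49 of 57 higher.

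To ask whether AZ1366 acted differently once EGFR was inhibited, its change with gefitinib was set against its change without gefitinib, AZ1366 minus DMSO; the 2 changes share no library. AZ1366 without gefitinib had 6801 of 11647 loci called, 58.4%, of which 2168 were higher (18.6%) and 4633 lower (39.8%). Across the 11647 loci, which are not independent replicates, the 2 changes had a Pearson r of 0.84 and a Spearman rho of 0.84. Of the 6118 loci called with gefitinib 77.3% were also called in the same direction without it, and of those called without gefitinib 69.5% with it. Of the 43 loci changed by at least 1 with gefitinib, 40 were called in the same direction without it. For the YAP/TEAD targets the median was -0.81 with gefitinib and -0.67 without, and 0 of the 22 were more positive and 0 more negative with gefitinib (2 and 0 without AZ1366 replicate 1): CTGF changed by -1.20 with gefitinib and -1.02 without, F3 by -1.25 and -1.11, AXL by -1.10 and -1.32.

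The difference between the 2 changes was itself called for 212 loci, 1.82% of those tested, 38 with a more positive change in the presence of gefitinib (0.326%) and 174 with a more negative one (1.49%). These counts leaned on single libraries. Without AZ1366 replicate 1, which stood apart from the other 3 of its group, 255 and 258 loci were called. The 38 dropped to between 16 and 24 without combination replicate 1, 2 or 3, gefitinib replicate 1 or 3, AZ1366 replicate 4 or DMSO replicate 1 or 4, and the 174 to between 83 and 107 without combination replicate 1, 3 or 4, gefitinib replicate 1, 2 or 3, AZ1366 replicate 4 or DMSO replicate 4. Length and GC correction gave 262 and 402, quantile normalization 274 and 346, and median-ratio scaling 125 and 294. The rank correlation of this difference with GC content across loci was 0.485, and the part of GC content in it was not tested.

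Many DNA replication genes differed in this way. 19 of the 38 members of the G1/S list had a more negative AZ1366 change with gefitinib than without and 0 a more positive one, with medians of -0.59 with gefitinib and -0.25 without. The count was 22 without AZ1366 replicate 1, 22 after quantile normalization, 21 after median-ratio scaling and 31 after length and GC correction. CDC6 changed by -1.06 with gefitinib and -0.43 without, with 30.4, 24.1, 23 and 24.7 FPKM in the AZ1366 libraries, against 35.9, 33.9, 34.9 and 33.8 FPKM in the DMSO libraries, a difference of -0.63 (SE 0.0985, adjusted p = 0.00445). The step between AZ1366 and DMSO was thus the smaller of the 2. RRM2 had 102, 92.4, 102 and 97.8 FPKM in the AZ1366 libraries, against 109, 114, 118 and 114 FPKM in the DMSO libraries, a change of -0.20, and the difference was -0.49 (SE 0.0678, adjusted p = 0.00204). For MCM6 the difference was -0.57 (SE 0.0809, adjusted p = 0.00209). CCNE2, cyclin E2, changed by -0.66 with gefitinib, at 5.12, 5.28, 4.97 and 5.37 FPKM in the combination libraries, against 8.82, 8.92, 8.41 and 8.85 FPKM in the gefitinib libraries. Without gefitinib it was at 0.12, with 14.1, 12.3, 13.6 and 12.4 FPKM in the AZ1366 libraries, against 10.8, 13.2, 13 and 11.1 FPKM in the DMSO libraries. Those 2 groups overlapped, and the difference was -0.77 (SE 0.0916, adjusted p = 0.00115). FAM111B, a trypsin-like protease, had the largest negative difference, -0.92 (SE 0.167, adjusted p = 0.00938), with 7.13, 8.12, 7.13 and 7.39 FPKM in the combination libraries, against 20.6, 22.3, 16.2 and 13.8 FPKM in the gefitinib libraries, and with 26.5, 19.4, 19.3 and 21.9 FPKM in the AZ1366 libraries, against 24.5, 24.4, 27.5 and 26.8 FPKM in the DMSO libraries. HMGB2, a chromatin protein, differed by -0.72 (SE 0.175, adjusted p = 0.0413), with adjusted p between 0.0688 and 0.1 without any 1 of combination replicates 1 to 4, gefitinib replicates 1 to 3, AZ1366 replicates 3 and 4 and DMSO replicates 1 and 4, and of 0.0889 with no filter. Over the G2/M list 7 of 38 and over the homologous recombination list 6 of 24 were more negative with gefitinib, and 8 and 7 without AZ1366 replicate 1. After median-ratio scaling the 2 counts were 12 and 8, and after length and GC correction 14 and 6.

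A few other genes differed. BMF rose less with gefitinib than without, by 0.47 and 1.11, with 16.1, 13.4, 12.7 and 14.7 FPKM in the AZ1366 libraries, against 6.52, 5.83, 5.51 and 6.29 FPKM in the DMSO libraries, a difference of -0.64 (SE 0.101, adjusted p = 0.00451). CCL2 likewise rose by 0.47 with gefitinib and 1.13 without, at 89.1, 89.1, 93 and 91.8 FPKM in the AZ1366 libraries, against 36.9, 45.4, 41.6 and 40.3 FPKM in the DMSO libraries (-0.66, SE 0.0822, adjusted p = 0.00115). The integrin chains ITGB6 and ITGB8 rose less with gefitinib, with differences of -0.52 and -0.52 (adjusted p = 0.00562 and 0.0337). For ITGB8 the adjusted p lay between 0.0536 and 0.082 without combination replicate 3 or 4, gefitinib replicate 1, 2 or 3, AZ1366 replicate 4 or DMSO replicate 3 or 4, and was 0.0628 with no filter. For HMGCS1 the change was more negative with gefitinib, with a difference of -0.46 (adjusted p = 0.00445), and so it was for PDCD1LG2, at -0.44 (adjusted p = 0.0131), and LGR5, at -0.43 (adjusted p = 0.0139), which was at -0.44 with gefitinib and -0.02 without.

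On the positive side stood CXCL10, which rose by 0.99 with gefitinib and was at 0.10 without, where it had 0.214, 0.344, 0.139 and 0.237 FPKM in the AZ1366 libraries, against 0.119, 0.113, 0.326 and 0.0396 FPKM in the DMSO libraries. That difference was 0.89 (SE 0.129, adjusted p = 0.00231) and rests on the scale, since without gefitinib the gene was far under 1 FPKM: with a pseudocount of 0.1 it was 0.66 with an adjusted p of 0.397. ADAMTS1 fell less with gefitinib, by 1.46, than without (-2.13), a difference of 0.67 (SE 0.14, adjusted p = 0.0195), which with the smaller pseudocount was 0.16 with an adjusted p of 0.774. COL8A1, a short-chain collagen, differed by 0.65 (adjusted p = 0.0193, and 0.0834 with the smaller pseudocount). GLI4, a zinc finger factor, and DDIT4L, an inhibitor of mTOR signalling, differed by 0.59 and 0.58 (adjusted p = 0.0194 and 0.00546). Without AZ1366 replicate 4 the adjusted p was 0.0506 for ADAMTS1, 0.05 for COL8A1 and 0.0506 for GLI4, and for GLI4 it was 0.0514 without DMSO replicate 4.

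**Figure D4:**
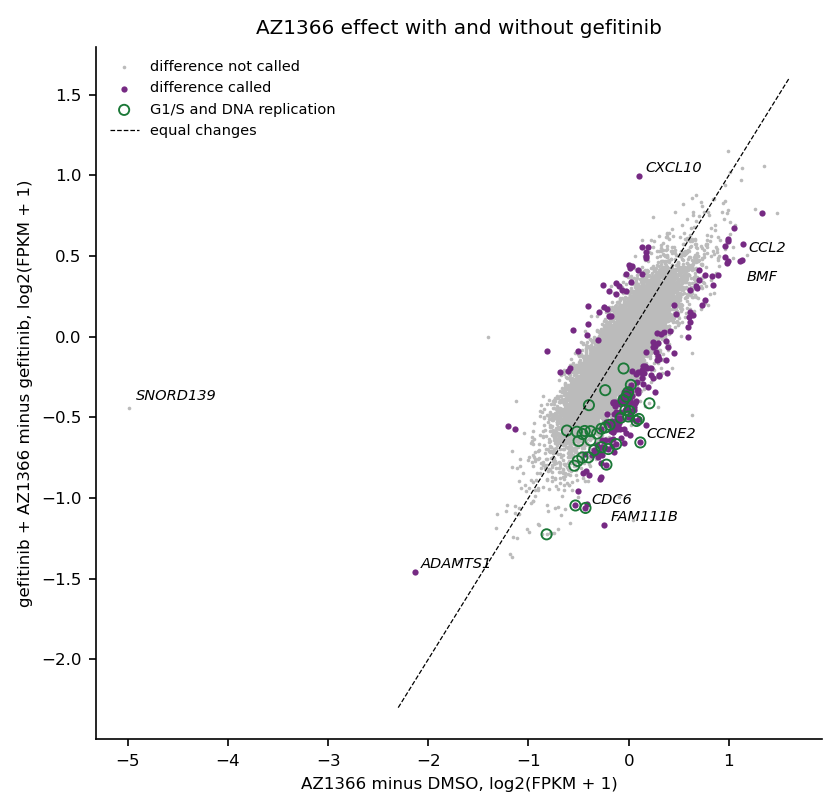
The AZ1366 change with gefitinib (vertical) against that without gefitinib (horizontal), both as differences of log2(FPKM + 1), for 11647 loci, with the 212 loci whose changes differed in purple, the G1/S list ringed in green and equal changes dashed. Most loci lie along the line, G1/S genes lie below it, and the point at the far left is SNORD139, a small nucleolar RNA that is listed at 0 in 3 of the 4 AZ1366 libraries.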

How the data were processed

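RNA-seq libraries of HCC4006 cells in 4 groups of 4 were analysed. The deposited table gives FPKM per locus; the submitters' processing notes name Cuffdiff, Cufflinks 1.3.0, TopHat 1.4.1 and the build hg19, and the strand setting and depth are not given in the sources used here. Values were analysed as log2(FPKM + 1) for the 11647 of 24293 loci with a mean of at least 1 FPKM, with limma 3.58.1 in R 4.3.3 (4 group means, moderated variances with a mean trend, Benjamini-Hochberg adjustment over all tested loci, threshold 0.05). The procedure was tested on simulated data with independent noise in each library. The real libraries deviated together, as described below, so that test gives no error rate for them. FPKM values showed no steps from which whole reads could be recovered, so depth is unknown and no counting interval is given. Genes below the filter were compared by exact two-sided permutation tests.

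Members and gene lists were chosen with earlier results of these data known. The text names the 12 largest rises and falls among called loci with 1 unshared symbol, up to 3 called members with the smallest adjusted p per list of at least 5 tested, the 5 largest differences in each direction between the AZ1366 changes, and a fixed set of pathway genes; others are marked as named after their values were seen. Some genes that this rule names are not reported here.

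Alternatives were a pseudocount of 0.1, no filter, a mean of at least 5 FPKM, quantile normalization, median-ratio scaling, no trend, only the libraries compared, a replicate block, correction for transcript length and GC content (GENCODE transcripts, 99.1% of tested loci) and leaving out each library. Same-numbered combination and gefitinib libraries deviated together, with correlations of 0.321, 0.29, 0.224 and 0.274 for numbers 1 to 4. They were taken as pairs in the replicate block alone, not in the main fit. The pairing comes from the data, since the labels give only numbers. Libraries 1 and 2, and 3 and 4, deviated together across the groups as much, with correlations between 0.263 and 0.368. The correlations thus do not single out the same-numbered pairs. No pair of libraries held identical values. RefSeq promoter windows were first drawn without regard to the gene start and then redrawn nearest to it, after the first motif counts had been seen. The list of mitochondrially encoded genes had no locus tested here.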

Additional observations from a re-analysis of the deposited data

Results flagged for a closer look

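Some libraries lay far from the other 3 of their group, with a gap to the nearest of them that took up most of the group's range. Chance alone marks about 1 in 20 groups in this way. There were 165 named genes tested, and the number of marks was not set against the number that chance would give. In gefitinib replicate 4 this was so for ANKRD1 (19.4 FPKM), AQP3 (3.61 FPKM), CLDN7 (144 FPKM), F3 (139 FPKM), IFITM1 (132 FPKM), LGR5 (3.49 FPKM), NDUFA1 (205 FPKM) and TNKS2 (15.5 FPKM). In gefitinib replicate 1 this was so for ACACA (5.9 FPKM) and MYC (2.91 FPKM). In combination replicate 2 this was so for CAV1 (134 FPKM) and CYR61 (99.9 FPKM). In gefitinib replicate 3 this was so for HLA-DMB (1.41 FPKM) and NDRG1 (7.43 FPKM). In gefitinib replicate 2 this was so for HBEGF (5.78 FPKM). In combination replicate 1 this was so for LGALS3 (1161 FPKM). In each of these genes but TNKS2 the combination and gefitinib groups still did not overlap.

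The AZ1366 change differed with and without gefitinib, by the test of the difference itself, for genes given in the report and some others. The change was more negative with gefitinib for AURKA (-0.30), BLM (-0.44), BMF (-0.64), CAV1 (-0.29), CCL2 (-0.66), CCNE2 (-0.77), CDC6 (-0.63), EXO1 (-0.46), FAM111B (-0.92), FANCI (-0.41), HMGB2 (-0.72), HMGCS1 (-0.46), ITGB6 (-0.52), ITGB8 (-0.52), LGR5 (-0.43), MCM6 (-0.57), PDCD1LG2 (-0.44), RBL1 (-0.51) and RRM2 (-0.49), and more positive for ADAMTS1 (0.67), COL8A1 (0.65), CXCL10 (0.89), DDIT4L (0.58), GLI4 (0.59) and SLPI (0.33), all as differences on the log2(FPKM + 1) scale. Among those not named for this difference in the report, the call was lost for AURKA without any 1 of combination replicates 1 to 4, gefitinib replicates 1 to 3, AZ1366 replicates 2 and 4 and DMSO replicates 1 to 4 (adjusted p up to 0.103), for BLM without combination replicate 1 or 2, gefitinib replicate 1, 2 or 3 or DMSO replicate 4 (adjusted p up to 0.063), for SLPI without combination replicate 1, 3 or 4, gefitinib replicate 1, 2 or 3, AZ1366 replicate 4 or DMSO replicate 1 or 4 (adjusted p up to 0.0791), and for CAV1 without gefitinib replicate 2 (adjusted p = 0.0512). It was also lost for AURKA after quantile normalization (adjusted p = 0.0512) and with no mean-variance trend (adjusted p = 0.0529), for SLPI with a pseudocount of 0.1 (adjusted p = 0.0837) and for CAV1 after median-ratio scaling (adjusted p = 0.0618).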

How the results depend on the processing

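Scaling decided the balance of calls. Loci higher with the combination than with gefitinib numbered 3064 (quantile normalization), 3099 (median-ratio scaling) and 3196 (length and GC correction), against 1780; those higher with AZ1366 than with DMSO numbered 3341, 3540 and 3364 under the same settings, against 2168. Loci higher by at least 1 numbered 13 with a pseudocount of 0.1, 11 with quantile normalization and 7 with median-ratio scaling, against 4, and those lower by at least 1 numbered 83, 21 and 23, and 17 with length and GC correction, against 39. For the difference between the AZ1366 changes, loci called higher numbered 25 (pseudocount of 0.1), 64 (no filter), 15 (mean of at least 5 FPKM), 274 (quantile normalization), 125 (median-ratio scaling) and 262 (length and GC correction), against 38, and lower 346, 294 and 402 under those last 3, against 174. Apart from the construction of each setting, the cause was not tested.

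Leaving out 1 library at a time gave 1380 to 1792 loci higher and 3387 to 4489 lower with the combination, of which 2 to 7 and 28 to 56 by at least 1, and 16 to 255 higher and 83 to 258 lower for the difference. The replicate block, which pairs same-numbered libraries, gave 1856 higher and 4666 lower, and 41 and 186 for the difference; among the genes printed it changed the call of YAP1 alone.

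TNKS and TNKS2 reversed to 0.18 and 0.17 under length and GC correction. Of 2778 results for single genes under these alternatives, 2745 kept direction and side of the threshold, 22 lost their call, 9 gained one and 2 reversed. Of 592 results for differences of single genes, 531 kept both, 61 lost their call and 0 reversed. The unknown depth limits what can be said of loci under 1 FPKM.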

Other observations

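In a mixed list of FOXO targets and feedback genes of PI3K, more members rose than fell. FOXO are factors that AKT holds in check. Of 23 tested members 8 were higher with the combination than with gefitinib and 4 lower. The counts were 13 and 2 after quantile normalization and 16 and 1 after length correction. HBP1, a repressor of the cell cycle, had 61.5, 59.7, 61.4 and 60.8 FPKM in the combination libraries, against 41, 41.2, 42.4 and 39.2 FPKM in the gefitinib libraries, without overlap (log2 change 0.56, SE 0.0487, adjusted p = 2.66e-07), and CCNG2, a cyclin that rises in arrested cells, was higher by 0.42 (adjusted p = 8.3e-05). YPEL5 was higher by 0.53 (adjusted p = 3.89e-05). Among lysosome and autophagy genes 12 of 29 were higher and 1 lower, against 15.3% and 37.2% of all loci. After length correction the counts were 18 and 0, against 27.7% and 25.7% of all loci. NPC2, a lysosomal cholesterol carrier listed with MIR4709, was higher by 0.33 (adjusted p = 8.64e-05) and GABARAPL2, which marks autophagosomes, by 0.33 (adjusted p = 0.000229). SQSTM1, the autophagy receptor p62, was higher by 0.33 with gefitinib (adjusted p = 0.000423) and was at 0.02 without (adjusted p = 0.82), a difference of 0.31 (SE 0.088, adjusted p = 0.0861). Of 21 targets of NRF2, the factor of the oxidative stress response, 6 were higher and 5 lower, and after length correction 10 and 1, led by AKR1C3, an aldo-keto reductase, with 2.86, 2.7, 2.89 and 2.7 FPKM in the combination libraries, against 1.03, 1.14, 1.28 and 1.14 FPKM in the gefitinib libraries (log2 change 0.82, SE 0.0661, adjusted p = 1.2e-07). AKR1B10, a relative, was higher by 0.63 (adjusted p = 2.74e-05) and the quinone reductase NQO1 by 0.32 (adjusted p = 2.24e-05). The 5 NRF2 targets called lower were GCLM, SLC7A11, TXNRD1, SRXN1 and ABCC1, the lowest being ABCC1 at -0.53. These were named after their values were seen. Of 19 heat shock genes 8 were lower and 3 higher, shares near the 37.2% and 15.3% of all loci, with HSP90AA1, inducible HSP90, at 719, 733, 648 and 659 FPKM in the combination libraries, against 1090, 1224, 969 and 876 FPKM in the gefitinib libraries (log2 change -0.58, SE 0.0913, adjusted p = 8.69e-05). The cochaperones HSPH1 and STIP1 fell by 0.56 (adjusted p = 0.000332) and 0.32 (adjusted p = 0.000259).

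Genes of tRNA charging fell in part. Of 20 aminoacyl-tRNA synthetases 13 were lower and 1 higher, but after length correction 7 and 4. IARS, AARS and EPRS, which charge the tRNAs of isoleucine, of alanine and of glutamate and proline, changed by -0.37 (adjusted p = 9.42e-06), -0.35 (adjusted p = 0.000289) and -0.36 (adjusted p = 0.000518). Of 26 ATF4 targets 10 were lower and 2 higher, the share lower being near that of all loci, and after length correction 7 and 4, with SLC7A5, a leucine transporter, at -0.53 (adjusted p = 9.83e-06), STC2, stanniocalcin-2, at -0.74 (adjusted p = 3.02e-05) and XPOT, a tRNA exporter, at -0.46 (adjusted p = 0.000352). Lineage genes moved unevenly. AGR2, a disulfide isomerase of secretory cells, had 240, 209, 235 and 244 FPKM in the combination libraries, against 135, 149, 144 and 150 FPKM in the gefitinib libraries (log2 change 0.68, SE 0.064, adjusted p = 5.58e-07). MUC1, a membrane mucin, was higher by 0.49 (adjusted p = 0.000588) and SLPI, a protease inhibitor of airway secretions, by 0.50 (adjusted p = 1.4e-06). Of 7 tested genes of this list 3 were higher and 0 lower, and after length correction 5 and 0. HOPX and AQP3, markers of alveolar and airway epithelium, were higher by 0.72 and 0.76 (adjusted p = 3.51e-06 and 1.13e-06), while CAV1, caveolin-1, another marker of the alveolar epithelium, had 138, 134, 137 and 137 FPKM in the combination libraries, against 225, 233, 227 and 224 FPKM in the gefitinib libraries (log2 change -0.73, SE 0.0435, adjusted p = 7.83e-09). Of 14 alveolar and lineage genes 3 were higher and 4 lower, with 4 and 2 after length correction. Of 20 cornified envelope and keratin genes 6 were higher and 7 lower, the share lower being near that of all loci. After length correction the counts were 5 and 8. The keratins KRT8 and KRT80 fell by 0.60 (adjusted p = 5.66e-06) and 0.60 (adjusted p = 5.25e-06), and S100P, a calcium-binding protein of secretory epithelium, was higher by 0.77 (adjusted p = 4.29e-06). Of 16 markers of drug-tolerant persister cells 5 were higher and 6 lower, the share lower being near that of all loci. RARRES3, a retinoid-induced lipase, was the highest at 0.41 (adjusted p = 0.000126). The lowest was AXL, described above, at -1.10, and IGFBP3, also described above, was called lower too. ALDH1A3, KDM5A, IGF1R and CPT1A, named after their values were seen, were the others called lower. After length correction 8 of the persister markers were higher and 2 lower.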
